A study of Mus musculus with 17 samples.

Results

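The keratin genes encode the intermediate filament proteins of epithelial cells, and 53 of the 21887 protein-coding genes placed on the mouse chromosomes belong to the family described here. They were taken as every protein-coding gene whose symbol is Krt followed by a number and, in some, a letter, which leaves out the keratin-associated proteins (Krtap). The family lies in 2 clusters, with 27 genes on chromosome 11 and 26 on chromosome 15 of GRCm38. A type I keratin pairs with a type II keratin to build the filament, and the chromosome 11 cluster holds type I genes while the chromosome 15 cluster holds type II genes and the type I gene Krt18. Basal epidermal cells are known for Krt5 and Krt14. Cells that move up the epidermis switch to Krt1 and Krt10, and the hair follicle uses its own sets for the inner root sheath and the hair shaft.

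Crosslinked epidermal cells of female mice were studied by chromatin immunoprecipitation and sequencing, with antibodies against H3K27ac, a histone mark of active promoters and enhancers, and against UTX, the H3K27 demethylase encoded by Kdm6a. Control mice had the genotype Cre-; Utx fl/fl, and deleted mice Cre+; Utx fl/fl, so that both carried Kdm6a alleles flanked by loxP sites. Cre was driven by keratin 14 sequences, which are active in basal epidermis and in other tissues with that keratin. The ages of the mice are not given in the sources used here. The deposited data are 4 peak lists, 1 for each antibody and genotype, each called on the merged libraries of a group. Control H3K27ac has 2 labelled libraries and each of the other 3 groups has 3. The labels' protocols state 3 samples for every group, and the sources used here do not settle how many libraries went into the control H3K27ac list. A list therefore has no replicate values, no difference between genotypes could be tested, and read depth is unknown.

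A peak was assigned to the gene it touches or, outside genes, to the nearest protein-coding gene at any distance. The control H3K27ac list held 2140 peaks, the Utx-deleted H3K27ac list 48, the control UTX list 547 and the Utx-deleted UTX list 213. Kdm6a had 0 assigned peaks in each list. Among markers of the labelled tissue, 5 of 12 keratinocyte genes had a control H3K27ac peak (Dsp, Krt10, Perp, Sfn and Col17a1), where 6.13% of all protein-coding genes had one. Of the defining keratins, Krt5, Krt14 and Krt1 had 0. Immune, fibroblast and melanocyte markers had 0 of 9, 0 of 8 and 0 of 7, and endothelial markers 2 of 7 (Pecam1 and Vwf). The part that other cell types may have in the keratin results was not tested.

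For 36 of the 53 keratins the RefSeq promoter table of GRCm38.p6 gives a start and the 300 bases around it, 250 before and 50 after. Shown here are the promoters of the keratins whose surroundings carried most H3K27ac peaks and have a listed start (Krt78, Krt42 and Krt10), of Krt8, the other neighbour of the Krt78 peaks, and of the basal keratin Krt5, which had no assigned peak. Each is written 5′ to 3′ along the gene, which is the minus strand for all of them. Capitals mark matches to the 5 motifs described at the end, on either strand.
Krt78 (chr15:101954238-101954537): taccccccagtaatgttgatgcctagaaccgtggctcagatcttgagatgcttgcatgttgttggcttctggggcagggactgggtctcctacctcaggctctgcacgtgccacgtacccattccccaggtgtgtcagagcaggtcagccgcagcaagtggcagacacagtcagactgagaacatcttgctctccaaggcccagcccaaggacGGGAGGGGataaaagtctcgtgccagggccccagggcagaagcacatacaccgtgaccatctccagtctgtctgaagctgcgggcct
Krt42 (chr11:100269902-100270201): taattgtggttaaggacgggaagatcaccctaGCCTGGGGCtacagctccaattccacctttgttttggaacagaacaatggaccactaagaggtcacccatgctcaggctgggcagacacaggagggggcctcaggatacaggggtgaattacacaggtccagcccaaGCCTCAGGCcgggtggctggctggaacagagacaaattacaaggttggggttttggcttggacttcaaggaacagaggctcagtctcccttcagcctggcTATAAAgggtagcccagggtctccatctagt
Krt10 (chr11:99389315-99389614): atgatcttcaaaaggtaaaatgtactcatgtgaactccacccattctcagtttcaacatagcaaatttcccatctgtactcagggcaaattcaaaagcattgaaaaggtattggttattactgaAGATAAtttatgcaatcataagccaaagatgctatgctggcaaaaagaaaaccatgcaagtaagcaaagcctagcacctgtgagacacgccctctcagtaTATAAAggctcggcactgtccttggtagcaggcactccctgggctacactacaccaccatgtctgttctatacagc
Krt8 (chr15:102004293-102004592): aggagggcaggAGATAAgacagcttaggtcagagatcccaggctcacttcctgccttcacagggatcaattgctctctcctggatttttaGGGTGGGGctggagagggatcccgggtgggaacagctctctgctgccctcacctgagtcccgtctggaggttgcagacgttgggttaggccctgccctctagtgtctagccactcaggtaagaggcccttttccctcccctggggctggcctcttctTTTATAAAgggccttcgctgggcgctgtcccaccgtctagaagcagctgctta
Krt5 (chr15:101712856-101713155): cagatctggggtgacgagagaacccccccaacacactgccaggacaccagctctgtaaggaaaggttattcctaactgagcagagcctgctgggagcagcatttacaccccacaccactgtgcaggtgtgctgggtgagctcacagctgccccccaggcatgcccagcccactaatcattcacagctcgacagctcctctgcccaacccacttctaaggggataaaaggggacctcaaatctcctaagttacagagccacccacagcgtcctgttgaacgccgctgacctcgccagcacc

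In control epidermis, H3K27ac peaks were assigned to 9 of the 53 keratins (17.0%, Wilson 95% interval 9.20 to 29.2). Over all protein-coding genes this share was 6.13%. On chromosome 11 it was 4 of 27 keratins and 170 of all 1609 genes, and on chromosome 15 5 of 26 and 58 of 776. The 9 keratins took 35 of the 2140 peaks (1.64%, 1.18 to 2.27). Intervals here cover counting error only, and they treat peaks and genes as independent, which neighbouring ones are not. The peaks were very unevenly spread. Krt78, a type II keratin of stratified epithelia, was assigned 14 peaks, Krt42, a type I keratin, 7, and Krt80, a type II keratin of differentiating epithelia, 6. Together these 3 genes held 27 of the 35 peaks (77.1%). Krt10, the suprabasal type I keratin, was assigned 3, and Krt7, Krt12, Krt33b, Krt72 and Krt77 had 1 each. The other 44 keratins had none.

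Most genes with a peak had few. Of the 1342 genes with a control H3K27ac peak, 930 (69.3%) had a single one, as did 5 keratins, and 55 (4.10%) had 5 or more. Krt78 shared the second rank with 1 other gene, Krt42 was 12th in a tie of 6 genes and Krt80 18th in a tie of 21. These numbers depend on how peaks are counted: with peaks within 1 kb of each other merged, Krt78 had 4, Krt42 1 and Krt80 2. Among peaks wider than the median of the H3K27ac lists, Krt78 had 7, Krt42 7 and Krt80 6. Without the 14 peaks of Krt78 the family's share of the list would be 0.981%, and without those of all 3 genes 0.374%.

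**Figure D1:**
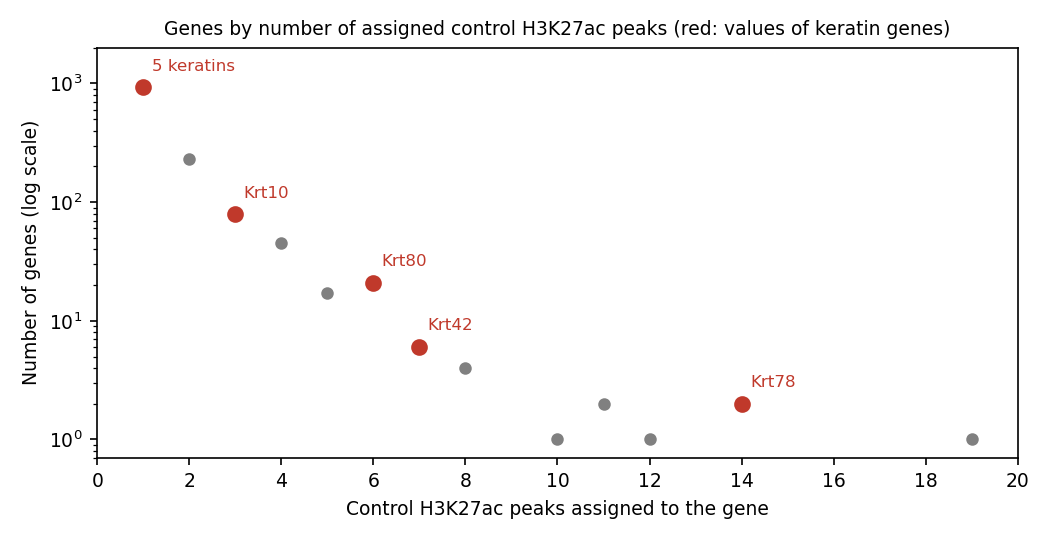
Number of genes (y axis, log scale) with each number of assigned control H3K27ac peaks (x axis); red points mark the values taken by keratin genes. Krt78 stands at 14 peaks and Krt42 at 7, while 930 genes have 1.

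By role, the members with a peak were scattered over the family. Of 5 suprabasal keratins, 2 had a peak, Krt10 and Krt77. Of 7 inner root sheath keratins, 1 had a peak (Krt72), as did 1 of 15 hair shaft keratins (Krt33b), 1 of 5 keratins of simple epithelia (Krt7) and 1 of 4 of mucosa and cornea (Krt12, the corneal keratin). The 3 basal keratins Krt5, Krt14 and Krt15 had 0, and so did the 5 keratins of stress and appendages, Krt6a, Krt6b, Krt16, Krt17 and Krt75, several of which are induced in wounds. Over all protein-coding genes 6.13% had a peak, and groups of 3 or 5 genes are too small for a 0 to set them apart. The remaining 9 keratins, of other or less settled roles, held Krt42, Krt78 and Krt80 and with them 27 peaks. Krt6a and Krt6b are close copies, and how reads that match several keratins were treated is not given in the sources used here.

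**Figure D2:**
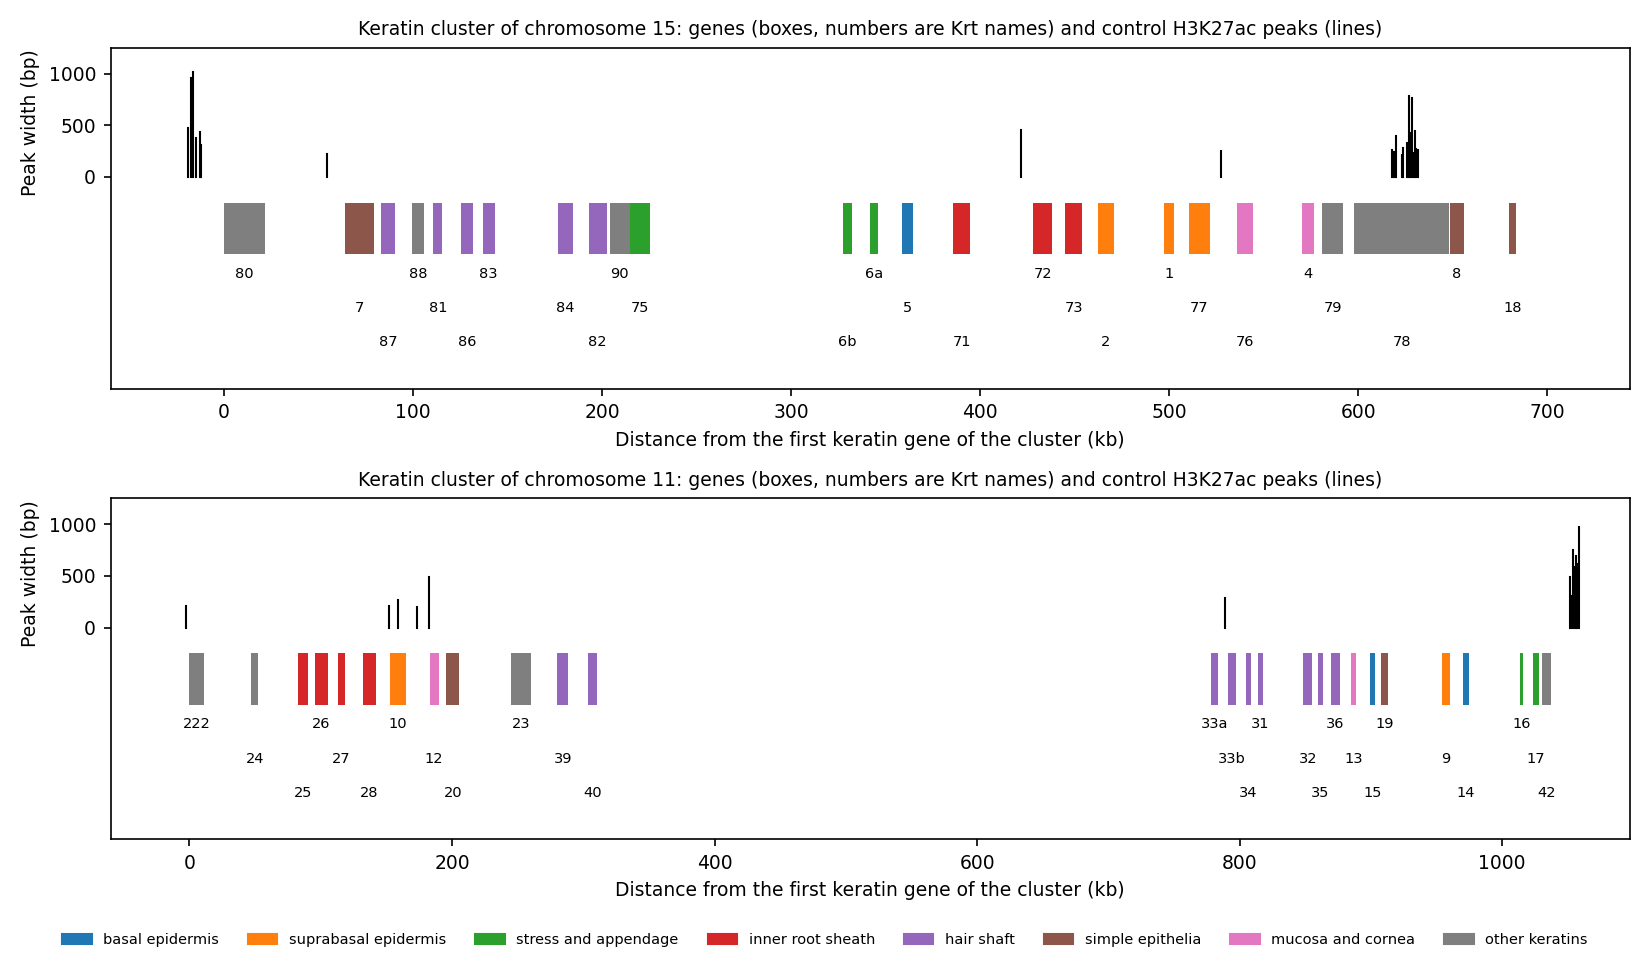
Positions of keratin genes (boxes coloured by role, numbered by name) and control H3K27ac peaks (lines, height gives the width in bp) in the clusters of chromosomes 15 and 11, in kb from the first keratin gene. The peaks gather in a stretch over Krt78 and in stretches just outside Krt80 and Krt42, at outer edges of the clusters.

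The Krt78 stretch ran over 13.9 kb (chromosome 15, 101966340 to 101980273) and its peaks covered 5080 bp, 36.5% of it. Its peaks were 199 to 783 bp wide with a median of 276 bp. Neighbouring peaks were a median of 518 bp apart, and the closest pair was separated by 10 bp. The widest, of 783 and 762 bp, had their centres 20.9 and 22.7 kb upstream of the start that the promoter table lists for Krt78, with a peak of 423 bp between them. The 4 peaks closest to that start were 199 to 394 bp wide.

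Which keratin the stretch belongs to depends on the gene model. The annotated span of Krt78 is 50.6 kb, against a median of 7 kb and a maximum of 21.8 kb for the other keratins, and 86 bp separate it from Krt8. The start in the promoter table lies 42.3 kb inside that span. From that start the centres of the 14 peaks lay 12.2 to 25.9 kb upstream. With gene spans counted from the listed starts, an alternative chosen after seeing the data, 8 of the 14 went to Krt78 and 6 to Krt8, a type II keratin of simple epithelia. The nearest of the 14 lay 16.4 kb from Krt8, and the gap to Krt79, a keratin known from the upper hair follicle, was 26.0 kb.

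The Krt42 stretch lay beyond the last keratin of the chromosome 11 cluster. Its 7 peaks ran over 7.23 kb (100284307 to 100291540) and covered 61.2% of it. They lay 14.4 to 20.6 kb outside Krt42, on the upstream side of its start. The gap to Eif1, a translation initiation factor gene on the other side, was 28.4 kb. The peaks were 306 to 971 bp wide, with a median of 620 bp, against 273 bp over the whole list. The peak of 971 bp was the 11th widest of the 2140 and that of 754 bp the 45th. All 7 lay inside Gm14206, an lncRNA gene, and when noncoding genes were allowed to take peaks they were assigned to it.

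The Krt80 stretch lay outside the chromosome 15 cluster, before its first keratin. It held 6 peaks over 7.23 kb (101329173 to 101336400), covering 49.1%. They lay 11.9 to 18.7 kb from Krt80, and 31.7 kb or more from Smim41 on the other side. The peak of 1015 bp was the 7th widest of the list and that of 953 bp the 13th. The other 4 were 307 to 472 bp wide.

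**Figure D3:**
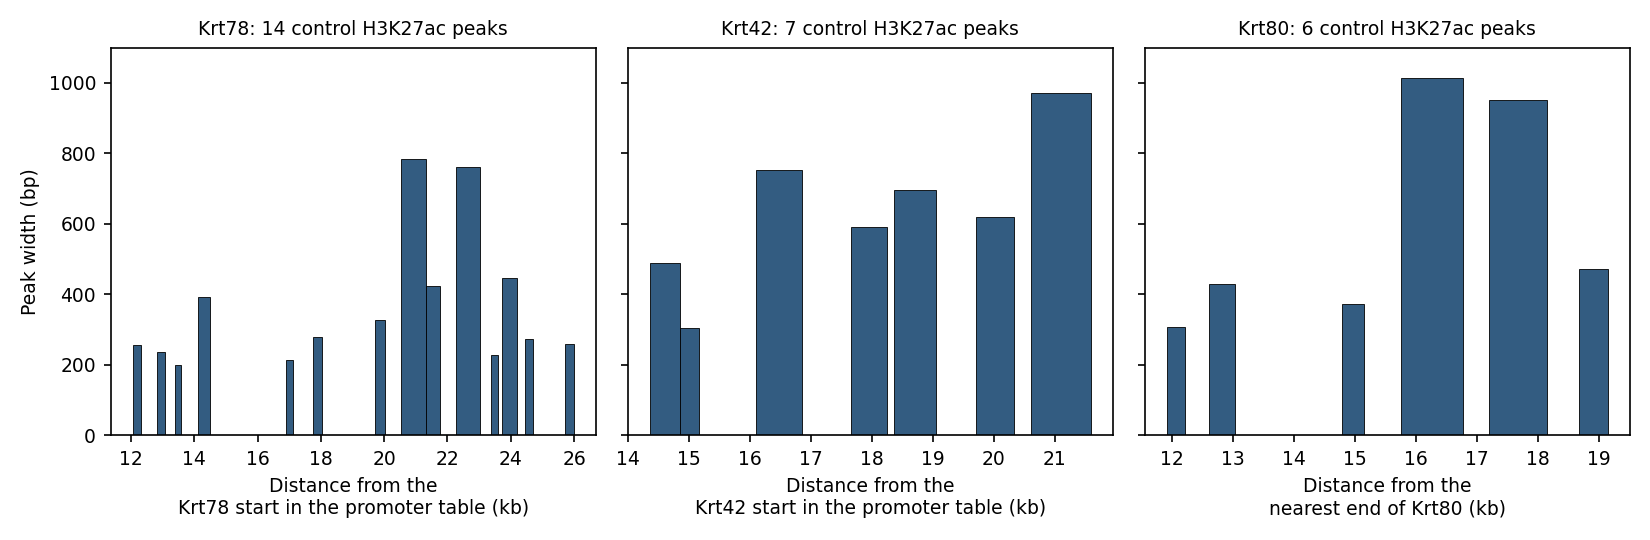
Width (y axis, bp) of each control H3K27ac peak in the stretches assigned to Krt78, Krt42 and Krt80, drawn to scale at its distance (x axis, kb) from the listed start of Krt78 or Krt42, or from the nearest end of Krt80. Krt78 has 14 peaks with a widest of 783 bp, Krt42 has 7 with a widest of 971 bp, and Krt80 has 6 with a widest of 1015 bp.

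Joined with neighbours up to 10 kb away, the list fell into 1431 runs, of which 1048 were single peaks. The Krt78 run held more peaks than any other of these runs, and it was the second by bases covered. The Krt42 run was the third and the Krt80 run 6th by bases covered. By number of peaks they ranked 9th and 14th, both in ties. When joined at 5 kb these ranks by number were 5th and 10th, and at 3 kb 2nd and 6th. Joining at 3 kb placed the 3 keratin runs 1st, 2nd and 3rd by bases covered among 1580 runs, and joining at 5 kb placed them 2nd, 3rd and 4th among 1520. The joining of peaks into runs was chosen after seeing the data.

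The 8 peaks outside the 3 stretches were narrower, with a median of 261.5 bp and a maximum of 485 bp. Over all 35 keratin peaks the median was 372 bp, and 23 of them (65.7%) were wider than the median of the list. The 3 peaks of Krt10 lay on both sides of its listed start. A peak of 208 bp (chromosome 11, 99384991 to 99385198) ended 56 bp outside the gene, on its downstream side. A peak of 268 bp (99391545 to 99391812) lay 2.31 kb upstream of the listed start, inside a span that reaches 8.09 kb beyond that start. A peak of 199 bp lay 16.7 kb upstream, 8.52 kb outside Krt10 and 9.49 kb from Krt12. The Krt12 peak of 485 bp (99415202 to 99415686) touched that gene at its downstream end, 6.82 kb from the listed start. These 4 peaks lay within a region of Krt10 and Krt12 that holds no other protein-coding gene.

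The remaining single peaks lay between genes. The Krt33b peak of 288 bp was 1.94 kb from Krt33b on its downstream side and 5.20 kb from Krt33a. Both encode type I hair keratins. The Krt72 peak of 456 bp (chromosome 15, 101769841 to 101770296) was 5.88 kb from Krt72, an inner root sheath keratin, and 26.7 kb from Krt71, another. The Krt77 peak of 255 bp was 5.94 kb outside Krt77, upstream of its start, and 8.45 kb from Krt76. The Krt7 peak of 217 bp was 9.46 kb outside Krt7, upstream of its start, and it overlapped the lncRNA genes Gm35853 and Gm671.

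No peak lay on a keratin promoter. Of 37 promoter windows of 36 keratins (Krt13 has a pair of starts), 0 overlapped a control H3K27ac peak and 0 had a peak within 1 kb. Over protein-coding genes 1.21% of 21263 windows were overlapped and 4.23% had a peak within 1 kb. At these shares fewer than 2 of 37 windows would carry a peak, so the 0 does not set the keratins apart from other genes. For 6 keratins, Krt14 among them (1.48 kb), the listed start lies over 100 bp inside the annotated gene, and a further start at the gene's end was not in these windows. A peak touched 3 of the 53 keratins (Krt10, Krt12 and Krt78; 5.66%), against 4.35% of all genes. For Krt10 and Krt78 this rests on annotated spans that reach beyond the listed start. The touching peaks were centred 2.31 kb upstream of that start for Krt10 and 12.2 kb or more for Krt78. Of these 3 genes only Krt12 is touched when spans begin at the listed starts. The share of all genes on such spans was not computed.

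Although few keratins had an assigned peak, most lay near one. The median distance from a keratin to the nearest control H3K27ac peak was 41.6 kb, against 472 kb over all protein-coding genes of chromosomes with a peak. For all genes of chromosome 11 it was 136 kb and for chromosome 15 it was 192 kb. Of the 53 keratins, 31 (58.5%) had a peak inside or within 50 kb, against 16.8% of all genes. Over all genes of chromosomes 11 and 15 these shares were 32.2% and 22.4%, against 55.6% and 61.5% of their keratins. Within 10 kb the count was 10 keratins (18.9%), against 8.09% of all genes. Neighbouring keratins share these peaks, so the counts are not independent, and no test was made.

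The distances rose and fell stepwise along each cluster. On chromosome 15 they grew from 11.9 kb at Krt80 and 9.46 kb at Krt7 to 160 kb at Krt75, a keratin of the hair follicle companion layer. They were 89.5 kb at Krt6b, 75.5 kb at Krt6a and 56.9 kb at Krt5. From Krt71 to Krt18 every keratin lay within 50 kb of a peak. Krt1 was 24.9 kb and Krt2 40.4 kb from the nearest peak. On chromosome 11 the basal keratins Krt14 and Krt15 were 76.8 and 110 kb away, and Krt19 was 119 kb away. Krt40, a hair keratin, was the farthest at 121 kb. The 5 stress and appendage keratins ranged from 23.3 kb at Krt17 to 160 kb, and the 3 basal keratins from 56.9 to 110 kb. Krt222 was 2.73 kb from a peak that lies inside its neighbour Smarce1, a gene named after its values were seen.

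**Figure D4:**
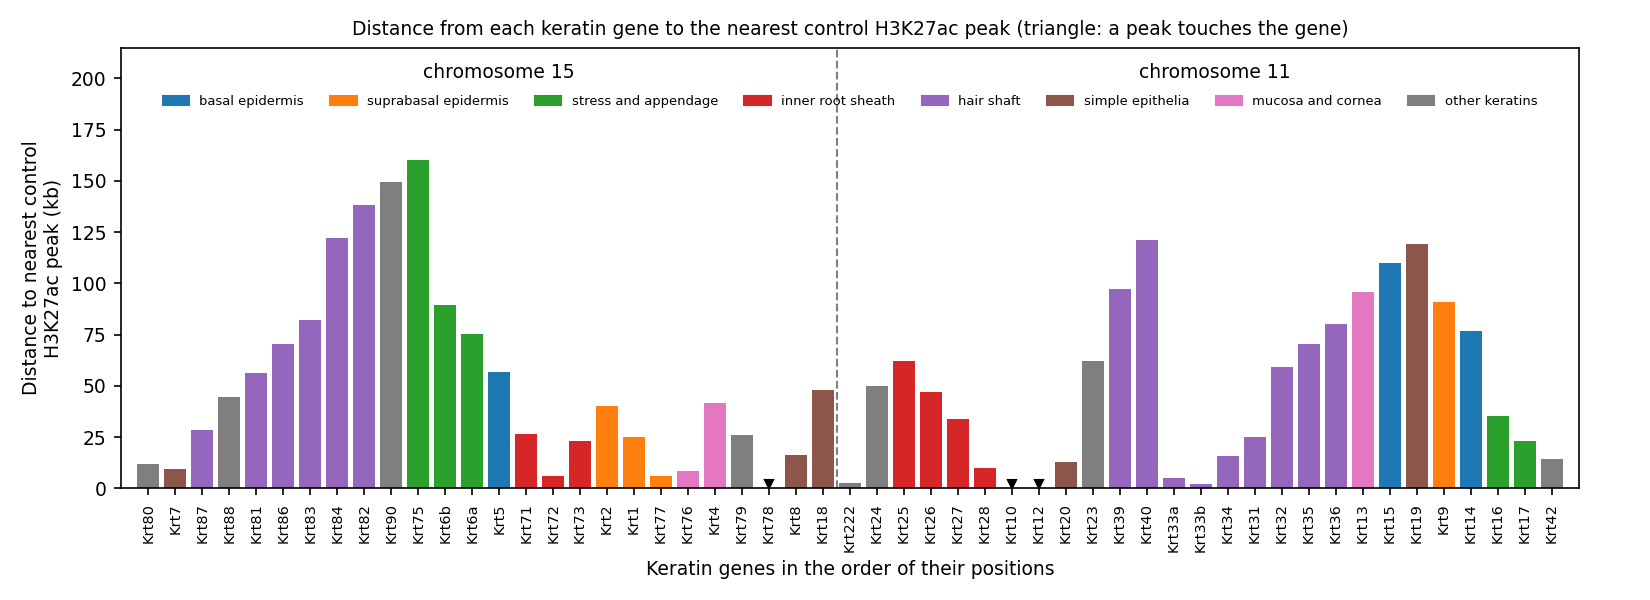
Distance (y axis, kb) from each of the 53 keratins to the nearest control H3K27ac peak, in the order of the genes along chromosomes 15 and 11, coloured by role; triangles mark the 3 genes that a peak touches. Distances climb to 160 kb at Krt75 and 121 kb at Krt40 and fall toward the peaks at Krt78, Krt10 and Krt42.

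Each cluster held parts with no H3K27ac peak. On chromosome 15 the longest ran for 367 kb (101402949 to 101769840) and contained 14 of the 26 keratins, from Krt7 to Krt71. Among them were Krt5, Krt6a, Krt6b and the hair keratins Krt81, Krt82, Krt83, Krt84, Krt86 and Krt87. On chromosome 11 it ran for 606 kb (99415687 to 100021410) and contained Krt20, Krt23, Krt39, Krt40 and Krt33a. Peaks were sparse over both whole chromosomes (densities below), and gaps elsewhere were not measured. These lengths therefore do not set the clusters apart from other regions. The same 606 kb held 38 genes outside the family, 23 of them Krtap genes, which encode proteins of the hair fibre. Genome-wide 0 of 56 Krtap genes had an assigned control H3K27ac peak. At the 6.13% of all genes fewer than 4 of 56 would have one, so little can be read from this 0. The span from the first to the last keratin measured 684 kb on chromosome 15 and held 17 peaks, 24.9 per Mb. Without the Krt78 stretch it held 3, or 4.39 per Mb. The span on chromosome 11 measured 1037 kb and held 5 peaks, 4.82 per Mb. Between their first and last gene the whole chromosomes 15 and 11 had 0.925 and 2.14 peaks per Mb. The clusters are dense in genes, and counted per protein-coding gene the order turned on chromosome 11, with 0.0769 peaks per gene in the cluster and 0.162 over the chromosome. On chromosome 15 the cluster had 0.630 peaks per gene against 0.124, and 0.111 without the Krt78 stretch. The Krt80 and Krt42 stretches lie outside these spans.

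After Utx deletion no H3K27ac peak was assigned to a keratin. The count was 0 of 53 keratins and 0 of 48 peaks, where 0.128% of all genes had a peak. A count of 0 among 48 peaks allows a share of up to 6.25%, above the 1.64% of the control list. A fall in the keratins' share of H3K27ac peaks was therefore not detectable with a list of this length, and the 0 does not exclude a rise within that limit. No Utx-deleted H3K27ac peak lay on chromosome 15, and on chromosome 11 the nearest was 8742 kb from Krt42. Of the 35 control keratin peaks 0 overlapped a Utx-deleted H3K27ac peak, as against 1 of the 2140 in the whole list.

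The UTX antibody gave no peak at the keratins in either genotype. In control epidermis 0 of 53 keratins had a UTX peak, against 2.44% of all genes, and 0 of 547 peaks allows a share of up to 0.548%. At 2.44% fewer than 2 of 53 genes would be met, so the 0 does not set the keratins apart. The nearest control UTX peak was 172 kb from Krt42 and 2272 kb from Krt80, the nearest keratin of chromosome 15. The clusters differed in the distance to a control UTX peak. Its median was 412.5 kb for the keratins of chromosome 11 and 1004 kb for all genes of that chromosome, and 2622 kb for the keratins of chromosome 15 and 1099 kb for all genes there. In gene order the distance fell from 1198 to 172 kb on chromosome 11 and rose from 2272 to 2952 kb on chromosome 15. Neighbouring keratins share a nearest UTX peak, so these medians do not rest on independent genes. In Utx-deleted epidermis 0 of 53 keratins had a UTX-antibody peak, against 0.516% of all genes, and the nearest lay 7521 kb from Krt80. Within 10 kb of the 35 keratin H3K27ac peaks there were 0 peaks of any of the other 3 lists. Of all 2140 control H3K27ac peaks, 1 lay that close to a Utx-deleted H3K27ac peak, 31 to a control UTX peak and 5 to a Utx-deleted UTX peak. At such rates fewer than 1 of 35 would be met, so the 0 does not set the keratin peaks apart. Krt14, whose regulatory sequences drive Cre, had 0 peaks in all 4 lists.

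Several partners of the keratin filaments had assigned control H3K27ac peaks. Of 36 genes listed as partners, 9 (25.0%) had a control H3K27ac peak, with 38 peaks in all. The list is wider than desmosomes, hemidesmosomes and filament-bundling proteins, with Tgm1, Tgm3, Tgm5, Krtcap2, Krtcap3 and Krtdap among its genes. The share was 17.0% for the keratins and 6.13% for all protein-coding genes, and these differences were not tested. Dsp, which encodes the desmosomal plaque protein that anchors keratin filaments, had 11 peaks, of which 5 touched the gene. Jup, which encodes plakoglobin, had 7, of which 5 touched it. Perp, a desmosome gene, had 6, of which 1 touched it, and Dsc3, which encodes a desmosomal cadherin, had 4, all touching the gene. The plakophilin gene Pkp3 had 3, all touching it. Dsg1a and Col17a1 had 2 each, of which 2 and 1 touched the gene. Dsg1c had 2, the nearer 57.4 kb away, and Pkp1 had 1 that touched it. None of the 36 had a peak in the other 3 lists, where 0.128%, 2.44% and 0.516% of all genes had one and fewer than 1 of 36 would be met. Jup lies on chromosome 11, 98.9 kb beyond Krt42, with Eif1, Gast and Hap1 between them, and 97.0 kb separate the Krt42 peaks from the first Jup peak.

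Some sequence features, which the choice of genes did not use, were more common in keratin promoters than in promoters of all protein-coding genes. Members of a gene family may be alike by descent, so the 37 windows are not independent, and this was not tested. The motif TATAAA, the core of the TATA box, occurred in 19 of 37 keratin promoters (51.4%) and in 12.6% of the 21263 promoters of protein-coding genes. On the gene's own strand, with its first base 40 to 20 bases before the start, it occurred in 13 of 37 (35.1%) against 2.53%. Krt10, printed above, has it 26 bases before the start. At any place and on either strand, all 7 inner root sheath promoters held TATAAA, as did 6 of 9 hair shaft promoters and 0 of 2 basal ones. The basal windows are those of Krt5 and Krt14, and the Krt14 window surrounds a start 1.48 kb inside the annotated gene. On the gene's own strand, 40 to 20 bases before the start, TATAAA occurred in 5 of 7, 4 of 9 and 0 of 2. The Krt78 and Krt5 promoters have the letters gataaaa near the same place and hold no exact match.

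The GATA motif AGATAA occurred in 10 of 37 keratin promoters (27%) against 9.65%, and in 4 of the 7 inner root sheath promoters. The other motifs were as common as elsewhere or less common. The AP-1 motif TGANTCA was found in 2 (5.41% against 6.99%), both starts of Krt13. The AP-2 motif GCCNNNGGC was found in 7 (18.9% against 19.9%), among them Krt42 with 2 matches. The KLF/SP motif CCNCNCCC was found in 15 (40.5% against 56.6%). Both strands were searched, and in the Krt8 promoter TATAAA matches on both strands overlap. The keratin promoters were poorer in G and C, with a median of 48.7% against 56.3%, which by itself changes how often such letters occur, and its part was not tested. A match is a description and not a bound site, and no keratin promoter lay under a peak of any list.

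**Figure D5:**
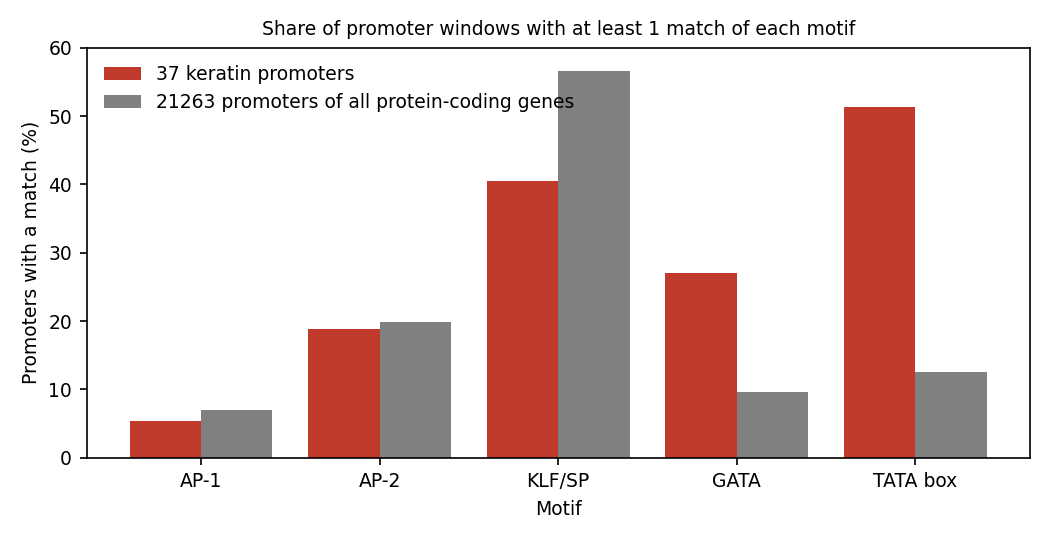
Share (y axis, %) of 37 keratin promoters (red) and of 21263 promoters of protein-coding genes (grey) with at least 1 match of each motif (x axis), both strands searched. TATAAA is found in 51.4% of keratin promoters against 12.6%, and AGATAA in 27% against 9.65%.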

How the data were processed

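The authors deposited 4 lists of narrow peaks, 1 per antibody and genotype, called with MACS2 on the merged samples of a group, per the file headers. The deposited values are other than counts or heights: each line gives a chromosome, a start and an end, with no score or q. Per the submitters' processing notes the tools also included FastQC, Bowtie2, bedtools and deepTools, without versions, and the builds mm10/GRCm38 and mm39/GRCm39 are both given. On GRCm38 11.4% of control H3K27ac peaks overlapped a promoter window, against 1.31% to 1.59% when moved by 10 or 100 kb. On chromosomes 11 and 15 these shares were 13.8% and 7.29%, against at most 1.53% and 2.08%.

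Groups came from the genotype labels and the antibody in the titles. Peaks were written 1-based and assigned to RefSeq genes of GRCm38.p6 by touch or nearest distance, and a peak that touches several genes counts for each. Peaks off chromosomes 1 to 19, X and Y were not assigned. Shares have Wilson 95% intervals, and the limit of a count of 0 is 3 counts. No test was made, since lists have no replicates and set tests were not used. The lists do not give the depth of any library. Gene and peak assignment was tested on simulated data. The keratins, gene lists, motifs and alternatives were chosen with earlier results of these data known. Named were keratins with a peak, Krt5, Krt14, Krt1 and Krt10, the nearest and farthest keratin of each cluster, neighbours of keratin peaks, other genes with a peak in the clusters, the 8 filament partners with most peaks and list members with a peak. Other genes and keratins were named after their values were seen. The input libraries were not analysed here. The software was matplotlib 3.10.9, scipy 1.17.1, pandas 2.3.3 and numpy 2.4.6 under Python 3.11.15.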

Additional observations from a re-analysis of the deposited data

How the results depend on the processing

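Of 73 alternative values of 14 summary results, 64 stayed within 1.5 times of the value reported, but 51 of these were counts of 0 that stayed 0. The number of keratins with a control H3K27ac peak was 6 to 10 over the 7 alternatives run for it, against 9. The 35 control H3K27ac peaks of keratins came to 23 among wider peaks only, 22 within 10 kb of the gene, 23 when noncoding genes could take peaks and 15 when peaks within 1 kb were merged. Each of these alternatives takes peaks away or joins them by construction. Peaks per Mb of the chromosome 11 cluster were 10.5 with 100 kb flanks, which take in the Krt42 stretch, and 1.93 for wider peaks. For chromosome 15 they were 11.7 for wider peaks and 10.2 for merged ones. The median distance from a keratin to a peak was 75.1 kb for wider peaks. By gene, the 7 Krt42 peaks came to 0 within 10 kb and to 0 with noncoding genes, and the 6 Krt80 peaks to 0 and 2. With peaks within 1 kb merged, Krt78 went from 14 to 4, Krt42 to 1 and Krt80 to 2. The 14 Krt78 peaks came to 7 among wider peaks and to 8 with gene spans from listed starts. Krt10 had 0 wider peaks. Without q values or values per library, a stricter q and the removal of libraries could not be run. No paired analysis was possible because the samples of a group were merged before peaks were called. The length of a list limits what it can show: 48 peaks cannot show a fall from a share of 1.64%.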
